A study of Mus musculus with 35 samples.

Results

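The genes described here are 10 regulators that act at the start of mouse development, Nr5a2, Klf17, Tfap2c, Nfya, Dppa2, Dppa4, Pou5f1, Sall4, Klf4 and Klf5. They were picked out by their symbols in the deposited table of gene counts, with no threshold on a measured value. Earlier results of these data were known when the genes were chosen. All 10 were found among the 24480 genes of the table. Total RNA was sequenced from wild-type C57BL/6NRj mouse embryos that had been injected with water or with Kdm5b-yfp mRNA at about 1150 ng/µl, which encodes KDM5B, a demethylase of the histone mark H3K4me3, fused to YFP. The 2 zygote groups, control zygotes (water, n = 10) and Kdm5b zygotes (n = 10), held single zygotes collected 17 h after ovulation. For the 2C groups, both blastomeres of 2-cell (2C) embryos were injected, and the embryos were collected 5.5 to 8 h after division. The 9 control 2C samples (water) were 6 single embryos, 1 pool of 2 blastomeres from 2 embryos and 2 pools of 3 blastomeres from 3 embryos each. The 6 Kdm5b 2C samples were 5 single embryos and 1 pool of 3 blastomeres from 3 embryos. Water controls received no mRNA, so an effect of the demethylase and one of mRNA injection as such cannot be told apart. The 2C embryos developed from zygotes that had been frozen and thawed, and zygote and 2C libraries were made on different days. Stage, freezing and the day of library preparation therefore cannot be told apart here.

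Between 8705584 and 17797581 fragments per sample were counted on genes. Kdm5b took 2.30% to 10.4% of them in Kdm5b zygotes and 8.27% to 15.8% in Kdm5b 2C samples, against at most 0.0189% in any control. The marker genes went with the stage labels, past the thresholds given below. In control 2C samples, 19 of the 22 tested markers of the 2-cell stage were higher than in control zygotes. Of the 19 tested oocyte-derived markers, 9 were lower. The marker lists were chosen with earlier results of these data known, so they are no independent check of the labels. Levels are given as TPM, which scales each sample's counts per exon length to a common sum, so that genes can be compared with each other. Of the 22 markers of cumulus and granulosa cells, which surround the oocyte, 18 to 21 had a count in a group, but they summed to only 27.9 to 72.4 TPM over the 35 samples, the range of each group overlapped that of every other group, and Ereg was at 0 in every sample. TPM is a share of a sample's transcripts, so a smaller total of other transcripts in an embryo cannot be told apart from more copies of one gene.

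During the first cell cycles the embryo lives on RNA and protein stored in the oocyte, and its own genome is switched on in a minor wave in the zygote and a major wave at the 2C stage, together called embryonic genome activation (EGA). The orphan nuclear receptor NR5A2, the zinc finger factor KLF17, the AP-2 factor TFAP2C and NFYA bind regulatory DNA in this window. NFYA is the sequence-specific subunit of the CCAAT-binding trimer NF-Y. DPPA2 and DPPA4 form a heterodimer that acts upstream of genes typical of the 2-cell state. POU5F1 (OCT4), SALL4, KLF4 and KLF5 belong to the network that later maintains pluripotency, and KLF5 also acts in the first lineage decision. The genes lie, in GRCm38, on chromosome 1 (Nr5a2, chr1:136843584-136960448, minus strand), chromosome 4 (Klf17, chr4:117756659-117765666, and Klf4, chr4:55527137-55532475, both minus), chromosome 14 (Klf5, chr14:99298691-99313412, plus), chromosome 17 (Pou5f1, chr17:35506032-35510777, plus, and Nfya, chr17:48386885-48409820, minus), chromosome 2 (Tfap2c, chr2:172549593-172558622, plus, and Sall4, chr2:168748332-168767201, minus) and chromosome 16 (Dppa2, chr16:48310274-48319513, and Dppa4, chr16:48283735-48294292, both plus). Maternal transcripts of several of these genes are present before the genome is active, so a level in a zygote need not come from the embryo's own transcription.

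Klf17 and Pou5f1 stood far above the other members at both stages, and Klf5 was the lowest member in zygotes. In control zygotes the order by median TPM was Klf17 (800.4), Pou5f1 (589), Nfya (293), Sall4 (265), Dppa2 (83.5), Tfap2c (58.2), Nr5a2 (45.4), Klf4 (25.2), Dppa4 (15.4) and Klf5 (1.72). Only 0.629% of all 24480 genes lay above Klf17 in median TPM there, and 43.6% lay above Klf5. Neighbours in this order overlapped in range in 6 of 9 pairs, and the separate ones were Pou5f1 above Nfya, Sall4 above Dppa2 and Dppa4 above Klf5. In control 2C samples the order became Klf17 (1018), Pou5f1 (819), Sall4 (181), Nfya (156), Dppa2 (80.5), Klf5 (42.7), Tfap2c (41.3), Nr5a2 (38.6), Klf4 (29.4) and Dppa4 (12.2). Here 8 of 9 neighbouring pairs overlapped, and only Pou5f1 and Sall4 were separate. Ranges ignore that both genes of a pair were measured in the same sample. Within samples, Nfya was above Dppa2 in 9 of 9 control 2C samples, and the other overlapping pairs kept their order in 3 to 8. In control zygotes, Klf17 was above Pou5f1, Nr5a2 above Klf4 and Klf4 above Dppa4 in 10 of 10. The other overlapping pairs there kept their order in 8 of 10. Kdm5b zygotes kept the order of control zygotes in all 10 places. Kdm5b 2C samples had Pou5f1 (878) above Klf17 (650.0), which was the reverse of the control 2C samples, although the ranges of both genes overlapped in both groups.

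**Figure D1:**
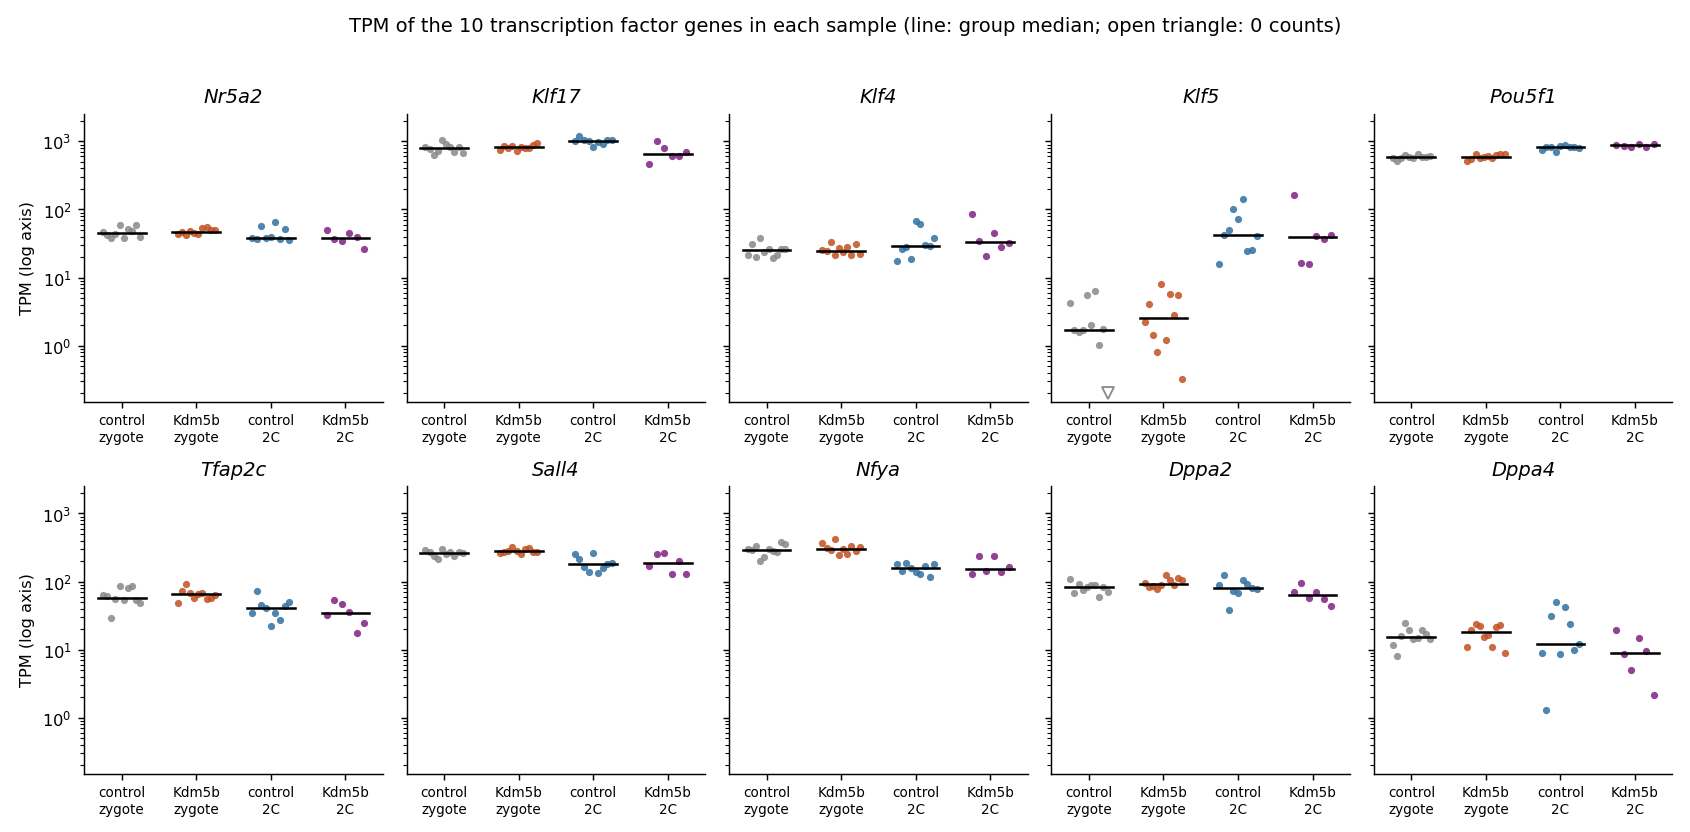
TPM (log axis) of each of the 10 genes in each of the 35 samples, in columns for control zygotes (n = 10), Kdm5b zygotes (n = 10), control 2C samples (n = 9) and Kdm5b 2C samples (n = 6), with a line at the group median and an open triangle for a sample with 0 counts. Klf5 moves from a median of 1.72 to 42.7 between control stages while Nr5a2 lies at 45.4 and 38.6, and Dppa4 in control 2C samples spreads from 1.28 to 50.4.

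Klf17, Pou5f1 and Nfya were the 3 members with the highest levels in control zygotes, and the 250 bases before an annotated start of each are shown because letters of the sites of other members occur in them. They come from RefSeq promoters of GRCm38.p6, and read 5′ to 3′ on the strand of the gene. Of the 10 genes, 5 were matched in that table by symbol (Nr5a2, Klf4, Klf17, Pou5f1 and Nfya), with 9 promoters. Capitals mark letters that match a motif on either strand, here CCAAT (the NF-Y box), GGGNGTGG (the box of KLF factors), TCAAGGNCA (the site of NR5A receptors) and GCCNNNGGC (the AP-2 site).
Klf17, chr4:117765667-117765916, minus strand: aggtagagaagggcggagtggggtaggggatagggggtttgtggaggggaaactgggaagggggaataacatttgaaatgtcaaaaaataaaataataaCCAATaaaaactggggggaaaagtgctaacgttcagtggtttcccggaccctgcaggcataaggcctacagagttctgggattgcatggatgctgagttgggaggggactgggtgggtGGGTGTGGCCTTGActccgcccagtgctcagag
Pou5f1, chr17:35505782-35506031, plus strand: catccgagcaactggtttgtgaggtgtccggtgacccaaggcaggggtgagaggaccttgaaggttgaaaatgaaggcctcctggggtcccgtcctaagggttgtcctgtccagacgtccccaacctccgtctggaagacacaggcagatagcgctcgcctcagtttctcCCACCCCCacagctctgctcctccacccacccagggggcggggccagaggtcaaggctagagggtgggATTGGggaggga
Nfya, chr17:48409821-48410070, minus strand: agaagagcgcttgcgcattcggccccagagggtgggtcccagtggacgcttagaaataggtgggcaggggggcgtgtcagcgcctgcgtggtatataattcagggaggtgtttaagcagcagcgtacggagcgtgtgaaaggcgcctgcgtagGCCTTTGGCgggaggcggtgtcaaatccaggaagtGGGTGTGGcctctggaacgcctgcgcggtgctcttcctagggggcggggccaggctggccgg

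Positions are counted backwards from -1, the base before the start. The Klf17 promoter held a CCAAT box at -151 to -147, and a KLF box at -33 to -26 that shared 3 bases with an NR5A site at -28 to -20. Pou5f1 held a KLF box at -80 to -73 and a CCAAT box at -12 to -8. In Nfya a KLF box lay at -62 to -55 and an AP-2 site at -97 to -89, and this window had no CCAAT. Over the 9 promoters, CCAAT was found in 5, the KLF box in 5, the AP-2 site in 3, the TATA box TATAAA in 2, the NR5A site in 1 and the octamer ATGCNAAT, the OCT4 site, in 0. Among all 32851 promoters of the table, searched over the same 250 bases, the shares were 33.8% for CCAAT, 15.9% for the KLF box, 13.7% for the AP-2 site, 12.4% for the TATA box, 1.39% for the NR5A site and 2.86% for the octamer. The promoters of one gene partly overlap, so the 9 are not independent, and a match in letters is not a measured binding site.

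Control 2C samples were compared with control zygotes to see how the set moved over the first division. A gene was said to rise or fall at an adjusted p under 0.05 in the quasi-likelihood test of edgeR, adjusted by Benjamini-Hochberg over all genes tested, and to pass both thresholds if its log2 fold change was also beyond 1 in either direction. All 10 genes passed the filter on low counts. Of them, 4 rose (Klf17, Klf4, Klf5 and Pou5f1) and 3 fell (Tfap2c, Sall4 and Nfya). Of all 11968 genes tested, 52.1% passed, 26.8% higher and 25.4% lower. Whether 7 of 10 differs from that share was not tested. Klf5 alone passed both thresholds, as did 22.1% of all genes tested. The members' log2 fold changes ran from -0.83 to 4.53 with a median of 0.27, beside a median of 0.02 over all genes.

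Klf5, a zinc finger activator that is required in the first lineages of the embryo, had the widest change. Its TPM ran from 0 to 6.39 in control zygotes with a median of 1.72, and from 15.9 to 144 in control 2C samples with a median of 42.7. All 9 control 2C samples lay above every control zygote, so the groups did not overlap. The log2 fold change was 4.53 (SE 0.50, 95% confidence interval 3.50 to 5.58, adjusted p = 6.41e-08 by edgeR), and it stayed between 4.24 and 4.79 in the 19 fits that each left out 1 sample. The zygote counts behind it were small, from 0 to 64 fragments. The control zygote with 0 counts allows a level of up to 0.326 TPM, the level that 3 counts would have given, for counting error only.

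Pou5f1, which encodes OCT4, rose by a smaller step that was the most even of the set. TPM was 519 to 656 in control zygotes (median 589) and 706 to 886 in control 2C samples (median 819), and again the groups did not overlap. The log2 fold change was 0.55 (SE 0.06, adjusted p = 8.50e-08 by edgeR), a 1.46-fold rise. Processed copies of Pou5f1 are known in the mouse genome, and featureCounts leaves out reads with several hits unless told otherwise, so its level may be understated in all groups.

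Klf17, the member with the highest level, rose 1.35-fold in control 2C samples. Its TPM was 624 to 1037 in control zygotes (median 800.4) and 826 to 1192 in control 2C samples (median 1018). The ranges overlapped, with 3 of 9 control 2C samples higher than any control zygote and all 9 higher than the zygote mean. The log2 fold change was 0.43 (SE 0.08, adjusted p = 7.77e-05 by edgeR).

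Klf4, a factor best known from reprogramming, sat at the edge of the threshold. TPM was 19.1 to 37.9 in control zygotes (median 25.2) and 17.3 to 67.1 in control 2C samples (median 29.4), with 3 of 9 control 2C samples above and 2 below all zygotes. Its log2 fold change of 0.55 (SE 0.21) had an adjusted p of 0.0317 by edgeR. That call was lost without control zygote 1, 3 or 7 or control 2C sample 5, 6 or 9 (log2 fold change 0.39 to 0.53, adjusted p 0.0513 to 0.106), and with single intact embryos only (0.57, adjusted p = 0.0697) or no filter on low counts (0.46, adjusted p = 0.0737).

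Nfya, whose promoter is printed above with its KLF box and AP-2 site, fell the most. Its TPM was 202 to 375 in control zygotes (median 293) and 117 to 190 in control 2C samples (median 156), so that all 9 control 2C samples lay below every zygote. The log2 fold change was -0.83 (SE 0.11, adjusted p = 8.86e-07 by edgeR), 1.77-fold lower. The other subunits of NF-Y, which were looked up after the values of Nfya had been seen, fell as well. Nfyb, which encodes a histone-fold subunit of the trimer, went from 23.5 to 34.6 TPM (median 29.7) down to 7.78 to 21.0 (median 13.5), with a log2 fold change of -0.93 (SE 0.18, adjusted p = 8.06e-05). For Nfyc, its dimer partner, TPM went from 290.0 to 343 (median 302) down to 149 to 235 (median 190), with a log2 fold change of -0.59 (SE 0.08, adjusted p = 1.83e-06). In neither did a control 2C sample reach the lowest zygote, and Nfyb stood far below the other subunits at both stages.

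Sall4, a zinc finger partner of the OCT4 network, fell 1.31-fold. TPM was 213 to 299.7 in control zygotes (median 265) and 134 to 261 in control 2C samples (median 181), and 6 of the 9 control 2C samples lay below all zygotes. The log2 fold change was -0.39 (SE 0.11, adjusted p = 0.00314 by edgeR). Tfap2c, which encodes the AP-2 gamma factor, had TPM from 29.4 to 86.7 in control zygotes (median 58.2) and from 21.8 to 73.1 in control 2C samples (median 41.3). These ranges overlapped broadly, and its log2 fold change of -0.49 (SE 0.20) had an adjusted p of 0.0385. The Tfap2c call was lost without control zygote 1, 5, 7 or 8 or control 2C sample 1, 5, 6 or 7 (log2 fold change -0.49 to -0.41, adjusted p 0.0530 to 0.0820), with DESeq2's size factors (-0.46, adjusted p = 0.0529) and with single intact embryos only (-0.50, adjusted p = 0.0806).

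Nr5a2, Dppa2 and Dppa4 did not pass the test between the control stages. Nr5a2 ran from 37.7 to 59.4 TPM in zygotes (median 45.4) and from 35.6 to 64.5 in 2C samples (median 38.6), and its log2 fold change was 0.02 with a confidence interval of -0.25 to 0.28, which leaves room for changes of about 1.2-fold either way. For Dppa2 the medians were 83.5 and 80.5 TPM, and the log2 fold change was 0.12 (confidence interval -0.20 to 0.43). Dppa4 was the gene whose 2C samples differed most, from 1.28 TPM in control 2C sample 2 to 50.4 in control 2C sample 4, around a median of 12.2. Its zygotes ran from 8.00 to 24.2 TPM (median 15.4), and the log2 fold change of 0.49 had a confidence interval from -0.34 to 1.32, too wide to place it.

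**Figure D2:**
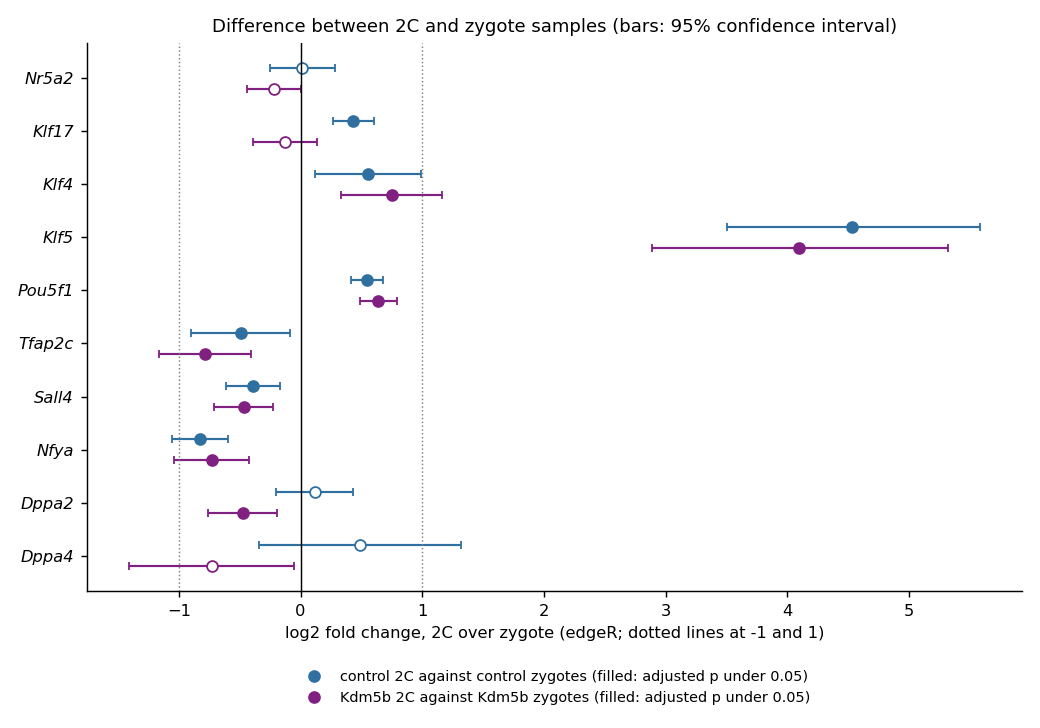
Log2 fold changes of the 10 genes between 2C samples and zygotes (edgeR) with 95% confidence intervals, for control groups (n = 9 and 10) and for Kdm5b groups (n = 6 and 10), with filled points for an adjusted p under 0.05 and dotted lines at -1 and 1. Klf5 stands at 4.53 and 4.09, Pou5f1 and Klf4 lie above 0 in both, and Tfap2c, Sall4 and Nfya lie below 0 in both. Klf17, Nr5a2, Dppa2 and Dppa4 are above 0 in controls only.

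The same step was compared within the Kdm5b samples, which share no sample with the controls. Again 7 of the 10 genes passed, beside 58.6% of the 12390 genes tested, of which 29.1% were higher and 29.5% lower. The 3 that rose were Klf5, Klf4 and Pou5f1, and the 4 that fell were Tfap2c, Sall4, Nfya and Dppa2. Klf5 again alone passed both thresholds, beside 26.4% of all genes, with TPM from 0.323 to 8.11 in Kdm5b zygotes (median 2.52) and from 15.7 to 162 in Kdm5b 2C samples (median 39.1). Its groups did not overlap, and its log2 fold change was 4.09 (SE 0.58, adjusted p = 8.28e-06 by edgeR), or 3.38 to 4.37 over the 16 fits without 1 sample. Pou5f1 rose from a median of 594 to 878 TPM without overlap (log2 fold change 0.64, SE 0.08, adjusted p = 6.28e-08), and Klf4 from 24.9 to 33.1 (0.75, SE 0.20, adjusted p = 0.00264).

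Among the genes that fell, Nfya went from a median of 303 to 155 TPM without overlap (log2 fold change -0.73, SE 0.15, adjusted p = 0.000227 by edgeR). Tfap2c went from 64.5 to 33.9 (-0.79, SE 0.18, adjusted p = 0.000724) and Sall4 from 278 to 185 (-0.47, SE 0.12, adjusted p = 0.00150), and in both 5 of 6 Kdm5b 2C samples lay below all Kdm5b zygotes. Dppa2, which had not passed in controls, went from 92.4 to 63.7 TPM (-0.48, SE 0.14, adjusted p = 0.00435).

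Klf17, which had risen in controls, had a log2 fold change of -0.13 (SE 0.13, adjusted p = 0.396 by edgeR) in the Kdm5b samples, with medians of 825 and 650.0 TPM. Without Kdm5b 2C sample 2, the highest of its group at 1026 TPM, the same value was -0.28 with an adjusted p of 0.0269. Dppa4 just missed the threshold at -0.73 (SE 0.33, adjusted p = 0.0582), and it passed in 5 of the 16 fits without 1 sample, those without Kdm5b zygote 1, 7 or 10 or Kdm5b 2C sample 1 or 4 (-1.002 to -0.79, adjusted p 0.0111 to 0.0469). For Nr5a2 the log2 fold change was -0.22 (SE 0.11, adjusted p = 0.0872), and it passed without Kdm5b 2C sample 1 or 4 (-0.28 in each, adjusted p 0.0324 and 0.0358) and with no filter on low counts (-0.29, adjusted p = 0.0397). With no filter Dppa4 passed as well (-0.81, adjusted p = 0.0345).

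Kdm5b zygotes were then compared with control zygotes, to see whether injection of Kdm5b-yfp mRNA moves these regulators. H3K4me3 was not measured in these samples. None of the 10 genes passed edgeR's test, beside 0.142% of the 11933 genes tested (0.0168% higher and 0.126% lower). An unadjusted p under 0.05 by edgeR was found for 2 of the 10, beside 1212 of all 11933 genes. DESeq2 also called 0 of the 10, and 2 had no adjusted p. By its unadjusted p, 2 were under 0.05, beside 1307 of all 11933 genes. These comparisons share their samples with those between stages. All 10 log2 fold changes were above 0, from 0.03 to 0.31 with a median of 0.09, beside a median of 0.01 over all genes.

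The intervals were narrow for the abundant genes. For Pou5f1 the log2 fold change was 0.03 with a confidence interval of -0.07 to 0.14, for Klf17 it was 0.06 (-0.08 to 0.21), and for Nfya it was 0.10 (-0.12 to 0.32). Dppa2 had the smallest p, with TPM from 58.7 to 107.7 in control zygotes (median 83.5) and from 77.9 to 123 in Kdm5b zygotes (median 92.4). Of the Kdm5b zygotes, 9 of 10 lay above the control mean, and the log2 fold change was 0.26 (SE 0.09, adjusted p = 0.327). Sall4 followed at 0.12 (SE 0.05, adjusted p = 0.451), with 8 of 10 above the control mean and medians of 265 and 278 TPM. Klf5 was too low in zygotes for a firm statement, since its log2 fold change of 0.31 had an interval from -0.75 to 1.38.

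In 2C embryos, again none of the 10 genes passed between Kdm5b and control samples in edgeR, beside 0.049% of the 12244 genes tested. An unadjusted p under 0.05 by edgeR was found for 1 of the 10, beside 1143 of all 12244 genes. DESeq2 called 1, Klf17, at an adjusted p alone, and gave Dppa4 no adjusted p. It gave 2 of the 10 an unadjusted p under 0.05, beside 1277 of all 12244 genes. How many of all genes DESeq2 called at an adjusted p was not counted. Klf17 was the member with the smallest p in edgeR as well. Its TPM ran from 826 to 1192 in control 2C samples (median 1018) and from 460 to 1026 in Kdm5b 2C samples (median 650.0), and 5 of the 6 Kdm5b 2C samples lay below every control 2C sample. The log2 fold change was -0.49 (SE 0.13, confidence interval -0.77 to -0.21), with an unadjusted p of 0.00149 and an adjusted p of 0.221 by edgeR. It ranked 81 by p among the genes tested. Over 9 other settings its log2 fold change stayed between -0.57 and -0.48, with adjusted p from 0.0101 to 0.460. It passed in 3, which were DESeq2's Wald test (adjusted p = 0.0432), a single fit of all samples (0.0101) and a term for the index set (0.0475). In these 3, more of all genes had an unadjusted p under 0.05 (1277 of 12244, 2426 of 13778 and 2013 of 12244). The reported fit had 1143 of 12244. Over the 15 fits without 1 sample, the log2 fold change of Klf17 was between -0.63 and -0.38 with adjusted p from 0.0620 to 0.469.

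The indices of the 2C libraries, numbered in the labels, fall into 2 sets of 8 consecutive numbers, called set 11 and set 12 here, which split the groups unevenly. In set 11, Klf17 ran from 999.5 to 1192 TPM in 3 control samples and from 460 to 1026 in 5 Kdm5b samples. In set 12, 6 control samples ran from 826 to 1041 and the only Kdm5b sample was at 600.3. The Kdm5b samples were thus the lower ones in both sets, with 1 sample of set 11 inside the control range. Among single intact embryos alone the log2 fold change was the same size at -0.49 (SE 0.17, adjusted p = 0.460).

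Dppa4 had the largest log2 fold change of the set in this comparison, -1.07, but with an SE of 0.59 and an interval from -2.29 to 0.15 (adjusted p = 0.610 by edgeR). Its Kdm5b 2C samples, from 2.18 to 19.1 TPM, lay wholly inside the control range of 1.28 to 50.4. With a term for the index set the value was -0.70 (SE 0.70), and it ranged from -1.35 to -0.79 over the fits without 1 sample. For Dppa2 the log2 fold change was -0.32 (interval -0.75 to 0.12), with medians of 80.5 and 63.7 TPM and 5 of 6 Kdm5b samples below the control mean. The other 7 genes had log2 fold changes between -0.20 and 0.26. Of these, Pou5f1 was the tightest at 0.14 (interval -0.04 to 0.33) and all 6 Kdm5b samples lay above the control mean, while the interval of Klf5 ran from -1.23 to 1.05 around -0.09. Nfya was at 0.21 (interval -0.11 to 0.53). A term for the index set moved several of these values, Tfap2c from -0.20 to -0.55 (SE 0.27, adjusted p = 0.316), Klf4 from 0.26 to 0.54 (SE 0.41, adjusted p = 0.569), Klf5 from -0.09 to 0.26 (SE 0.72, adjusted p = 0.909) and Nfya from 0.21 to 0.08 (SE 0.17, adjusted p = 0.869), and none of them passed with it in edgeR. Its partner Nfyb, named after its value was seen, was at -1.02 (SE 0.30, adjusted p = 0.246), from 4.62 to 9.35 TPM in Kdm5b 2C samples beside 7.78 to 21.0 in controls, and Nfyc was at 0.11 (SE 0.13).

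**Figure D3:**
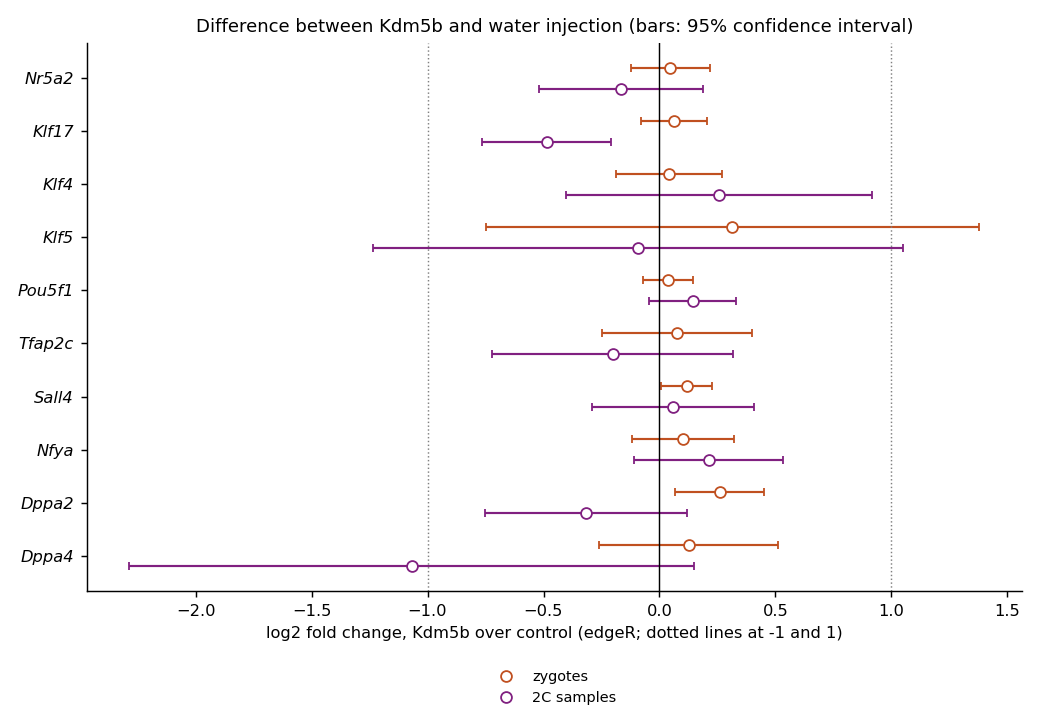
Log2 fold changes of the 10 genes between Kdm5b and control samples (edgeR) with 95% confidence intervals, for zygotes (n = 10 and 10) and 2C samples (n = 6 and 9), with dotted lines at -1 and 1. None had an adjusted p under 0.05, Klf17 in 2C samples lies at -0.49 with an interval that stays below 0, and the intervals of Klf5 in both stages and of Dppa4 in 2C samples cross a dotted line.

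Whether the effect of Kdm5b differed between stages was tested as an interaction over all 35 samples. In edgeR none of the 10 genes passed, beside 0.123% of the 13778 genes tested (0.00726% higher and 0.116% lower). An unadjusted p under 0.05 by edgeR was found for 3 (Klf17, Dppa2 and Dppa4), beside 1249 of all 13778 genes. DESeq2 called 1, Klf17, and gave 3 an unadjusted p under 0.05, beside 1413 of all genes. For all 3 the estimate was below 0, the direction of a lower value of Kdm5b against control in 2C samples than in zygotes. Klf17 stood at -0.55 (SE 0.15, adjusted p = 0.15 by edgeR), Dppa2 at -0.58 (SE 0.22, adjusted p = 0.347) and Dppa4 at -1.20 (SE 0.56, adjusted p = 0.512). Without Kdm5b 2C sample 2 the interaction of Klf17 was -0.69 and passed (adjusted p = 0.00824), and with DESeq2's Wald test it was -0.55 (adjusted p = 0.0492). The same estimate is the difference between the stage steps of Kdm5b and control samples, so by edgeR the steps of Klf17 and Dppa2 were not shown to differ between them. The interaction shares its samples with the other comparisons and is not independent of them.

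The injected groups also differed in how much Kdm5b they held, and a slope on the log2 of that share was fitted within each. In Kdm5b zygotes 0 of the 10 genes and 0% of the 12890 genes tested passed in edgeR, and DESeq2 called 0 members. By edgeR, 2 members (Nfya and Dppa4) were under an unadjusted p of 0.05, beside 423 of all 12890 genes. In Kdm5b 2C samples 0 members and 0% of 11984 genes passed in edgeR. There 1 member, Sall4, was under an unadjusted p of 0.05, beside 757 of all 11984 genes. Sall4 had a slope of -0.96 per doubling of the share (SE 0.20, adjusted p = 0.379 by edgeR), and DESeq2 gave it an adjusted p of 0.00513. Its 6 values ran from 128 to 263 TPM. With 6 samples and shares that spanned less than a doubling, from 8.27% to 15.8%, this slope rests on few points. The pooled sample had the lowest Sall4. Over the 6 fits without 1 sample the slope stayed between -1.07 and -0.88, and it passed in 0 of them by edgeR.

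**Figure D4:**
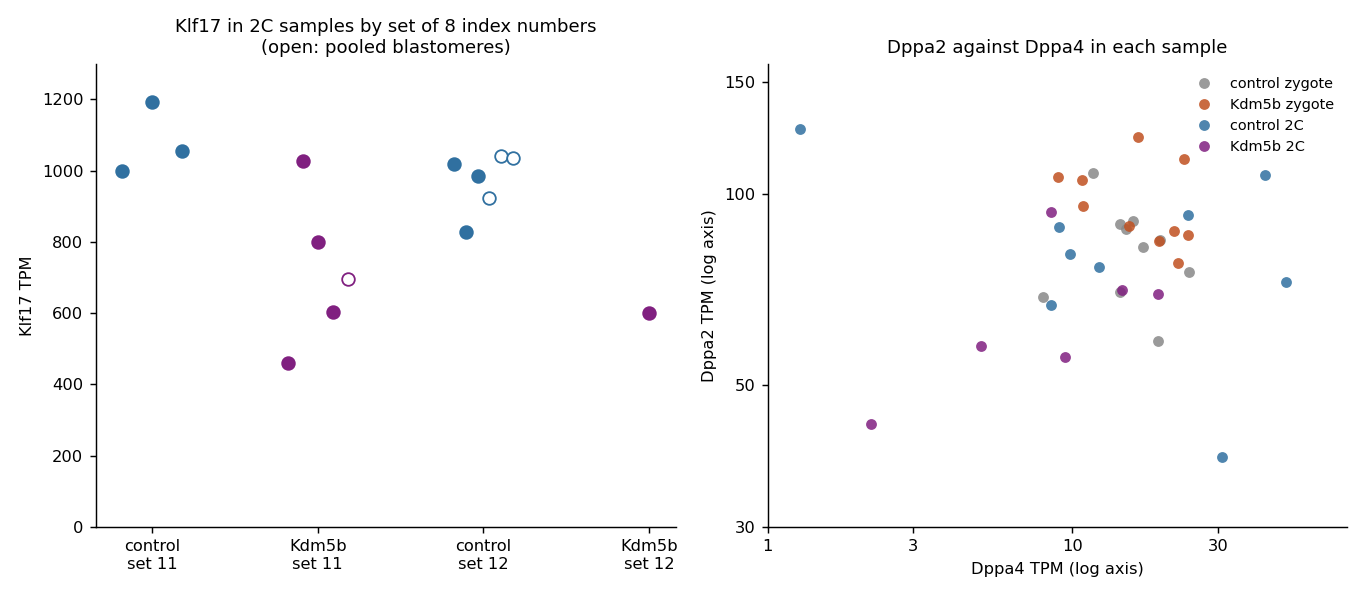
Left, Klf17 TPM in each 2C sample, split by injection and by set of 8 index numbers, with open points for pooled blastomeres. In set 11 the control samples lie at 999.5 to 1192 and the Kdm5b samples at 460 to 1026, and the only Kdm5b sample of set 12 lies at 600.3. Right, Dppa2 against Dppa4 TPM (log axes) in each of the 35 samples, where control 2C samples spread from 1.28 to 50.4 in Dppa4.

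Samples of one group agreed closely for some members and poorly for others. Pou5f1 was the most even, with a coefficient of variation (CV, the SD over the mean of TPM) from 4.68% to 7.94% in the 4 groups. The median CV of all genes with a mean TPM over 10 was 13.6% in control zygotes, 13.1% in Kdm5b zygotes, 28.0% in control 2C samples and 22.8% in Kdm5b 2C samples. Klf5 had CVs between 73.04% and 105%, and Dppa4 went from 28.1% in control zygotes to 81.4% in control 2C samples. Counting error alone would give Dppa4 in control 2C samples about 9.47%, so its spread there was larger than counting error. Klf4 went from 22.5% to 50.2%, whereas Klf17 (15.2% and 9.86%) and Nfya (17.81% and 16.2%) did not spread more in control 2C samples than in control zygotes. Between Kdm5b zygotes and Kdm5b 2C samples both did, Klf17 from 7.96% to 28.2% and Nfya from 16.8% to 28.2%. Of the members whose own mean TPM was over 10 in a group, 7 of 9 lay above the median of all such genes in control zygotes, 5 of 9 in Kdm5b zygotes, 5 of 10 in control 2C samples and 7 of 9 in Kdm5b 2C samples. Klf5 in zygotes and Dppa4 in Kdm5b 2C samples were below that level and are not counted.

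**Figure D5:**
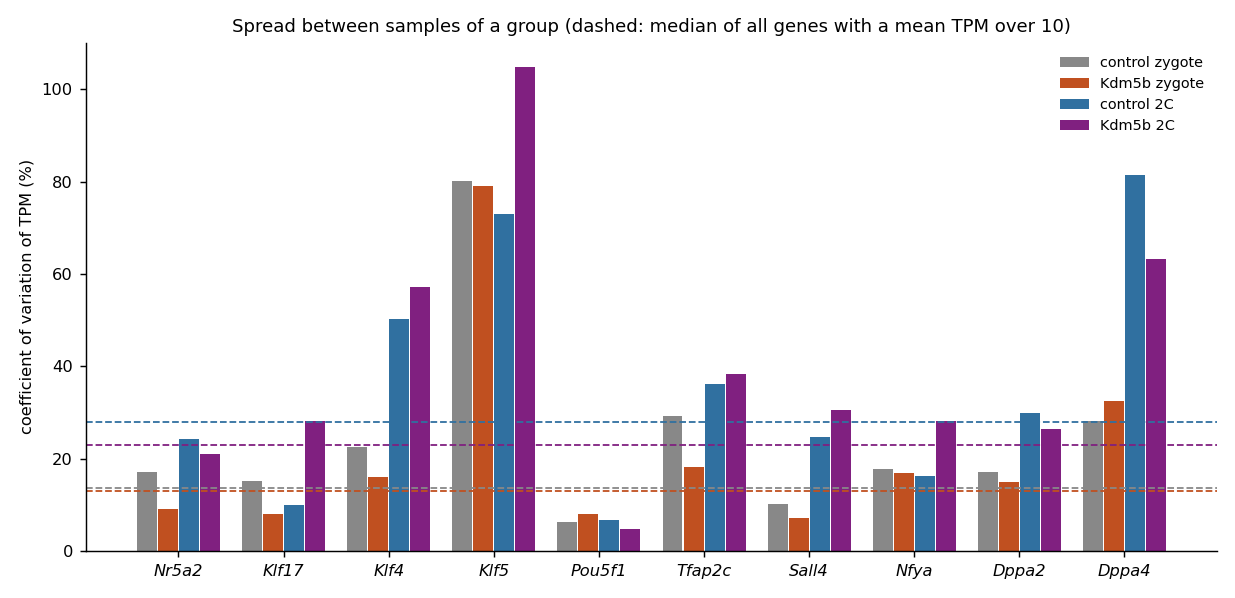
Coefficient of variation of TPM (%) of each of the 10 genes within control zygotes (n = 10), Kdm5b zygotes (n = 10), control 2C samples (n = 9) and Kdm5b 2C samples (n = 6), with dashed lines at the median of all genes with a mean TPM over 10, a level that Klf5 in zygotes and Dppa4 in Kdm5b 2C samples did not reach. Pou5f1 stays between 4.68% and 7.94% in every group, while Klf5 lies between 73.04% and 105% and Dppa4 reaches 81.4% in control 2C samples.

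The spread was not shared across the set. After the group means had been removed, Pearson's r of log2 CPM (counts scaled by library size) over the 35 samples ranged from -0.48 to 0.61 over the 45 pairs of members, with a median of 0.03. These values are descriptions, since pairs share libraries and their depth. Klf17 and Tfap2c varied together most (r = 0.61, Spearman's rho = 0.58), with 0.51 in the 20 zygotes, 0.66 in the 15 2C samples and 0.56 without the 2 samples farthest from the median. Dppa2 and Dppa4, whose genes lie 15981 bases apart on chromosome 16 and whose products pair, had r = -0.21 and a rho of -0.04. Without the 2 samples farthest from the median in Dppa4, r over the remaining samples was 0.03. With no sample left out it was -0.25 in the 20 zygotes and -0.21 in the 15 2C samples. The sign over all samples thus depended on few samples. The ratio of Dppa2 to Dppa4 TPM went from 3.07 to 9.23 in control zygotes and from 1.24 to 99.2 in control 2C samples, where the highest ratio came from control 2C sample 2 with 8 counts of Dppa4. At the other end were Sall4 and Dppa4 (-0.48) and Nfya and Klf5 (-0.47). Klf4 and Klf5 had r = 0.32 over all samples (rho 0.26, and 0.29 without the 2 farthest samples), with -0.06 in zygotes and 0.65 in 2C samples. The sample with the highest Klf5 and the highest Klf4, Kdm5b 2C sample 1 with 162 and 86.1 TPM, had the lowest Klf17, at 460 TPM.

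Each member was also set beside all 13778 genes that passed the filter, to find the genes with the most similar profile over the 35 samples. The closest gene was Apc for Pou5f1 (r = 0.97), Ctsl for Klf5 (0.94), Stau1 for Sall4 (0.94) and Tpd52l2 for Nfya (0.93). It was Gtpbp10 for Tfap2c (0.80), Pnldc1 for Dppa4 (0.80), Mllt10 for Klf17 (0.77), Fabp3 for Klf4 (0.76), Fam110b for Dppa2 (0.70) and Mlf1 for Nr5a2 (0.65). With the group means removed, 3 members kept the same closest gene, Sall4 with Stau1 (0.89), Dppa4 with Pnldc1 (0.84) and Pou5f1 with Apc (0.70). For the other 7 it was Dcp1a for Nfya (0.80), Trim13 for Klf17 (0.79), Zfp131 for Nr5a2 (0.76), Parp12 for Tfap2c (0.74), Col24a1 for Dppa2 (0.72), Tob1 for Klf4 (0.72) and Gabpa for Klf5 (0.71). Each is the highest of 13778 values and is thus selected for its size.

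Other factors of the same families and networks gave a background for the members. Of 35 listed relatives (other NF-Y subunits and other members of the same families), 22 were tested between the control stages, 3 passed both thresholds higher and 0 lower, led by Klf9 (log2 fold change 2.87, SE 0.50, adjusted p = 2.72e-05 by edgeR). At an adjusted p alone, 8 were higher and 5 lower, with a median of 0.21. Among 34 other pluripotency factors 25 were tested, and 6 passed both thresholds higher, led by Fbxo15 (2.07, SE 0.24), and 2 lower, led by Esrrb (-1.01, SE 0.18), with a median of 0.39. OCT4's partner Sox2, picked after its values were seen, rose from a median of 3.71 to 7.52 TPM (1.46, SE 0.38, adjusted p = 0.00197), and Nanog held at most 16 counts in any sample and did not pass the filter. Of 28 genes listed as other regulators of EGA, 25 were tested, 11 were higher past both thresholds, led by Zscan4d (3.41, SE 0.37), and 2 lower, led by Obox2 (-1.07, SE 0.18), with a median of 0.82. This list shares genes with the 2-cell list, among them Zscan4d and Usp17le, so the counts of these lists are not separate. Of 22 factors of later lineages, 15 were tested, 3 were higher, led by Gata2 (1.97, SE 0.36), and 1 lower, Fgfr2 (-1.12, SE 0.15), with a median of 0.75. The share of all genes past both thresholds was 9.16% higher and 13% lower. Of the 20 oocyte-derived markers 19 were tested, with 0 higher and 9 lower, led by Ooep (-1.81, SE 0.13), and the cumulus list had 5 tested and 0 in either direction. The 2-cell list was led by Gm5662 (9.75, SE 0.55) higher and Hspa1b (-1.64, SE 0.47) lower.

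In the Kdm5b groups the same lists gave 4 higher and 1 lower among 23 tested relatives, led by Klf9 (2.99, SE 0.48) and Nfyb (-1.79, SE 0.18). They gave 7 and 3 among 27 pluripotency factors (Zfp42, 2.60, SE 0.45, and Esrrb, -1.23, SE 0.17) and 10 and 2 among 25 genes of the EGA list (Usp17le, 5.01, SE 0.35, and Obox2, -1.98, SE 0.15). Among 15 lineage factors they gave 5 and 1 (Gata4, 1.17, SE 0.15, and Gata3, -1.12, SE 0.19). Of the 2-cell markers 18 were higher and 1 lower of 22, led by Gm8300 (8.69, SE 0.57) and Hspa1b (-1.58, SE 0.24), and of the oocyte-derived markers 0 and 9 of 19, led by Padi6 (-1.74, SE 0.09). The cumulus list had 1 higher of 5, Kitl (1.06, SE 0.27). The shares of all genes past both thresholds were 10.4% higher and 16% lower. Between Kdm5b and control samples, none of the 7 lists had a gene past the thresholds in zygotes, beside 0.00838% of all genes, and in 2C samples 1 gene passed, the homeobox gene Obox7 (-1.07, SE 0.18, adjusted p = 0.0224), beside 0.0163% of all genes.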

How the data were processed

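The authors trimmed the paired reads with fastp 0.21.0, aligned them to GRCm38 with STAR 2.7.3a and assigned fragments to RefSeq genes by strand with featureCounts 1.5.1. The deposited values are raw counts, whole numbers per gene and sample, with summed exon lengths. The deposited table of repeats was not used here. The Kdm5b row was removed before normalisation, as in the authors' methods. TPM was computed here from counts and exon lengths. Counts were tested with edgeR 4.0.16 in R 4.3.3 (TMM, filterByExpr with a minimum count of 10, robust quasi-likelihood fit, Benjamini-Hochberg adjustment over all genes tested) on the groups compared, at an adjusted p of 0.05, with and without an absolute log2 fold change of 1. The comparisons were stage within each injection, injection within each stage, their interaction and slopes on the log2 Kdm5b share. Confidence intervals are at 95%.

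Depth was 8705584 to 17797581 counts per sample, and intervals on counts cover counting error only. No pair of samples was alike within sampling noise. Embryos were separate samples by their labels, and 4 were pools.

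The members and the lists of related genes were chosen with earlier results of these data known. Named genes were the 10 members, for each list the gene with the smallest p in each direction among those called, and the 2 genes most like each member by Pearson's r of log2 CPM (prior count 2), over all samples and with group means removed, of which the closest is given. Sox2, Nanog, Nfyb and Nfyc were added later. Same-numbered samples did not deviate together (r of deviations between -0.18 and 0.10), so replicate numbers were only names.

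The alternatives were DESeq2 1.42.0 (its size factors, and its Wald test), no filter, a mean of at least 50 counts, the Kdm5b row kept, a joint fit of all samples, a block for the replicate number, the set of index numbers as a covariate, single intact embryos only, no threshold on the fold change, each sample left out, TPM scaled by TMM factors, a prior count of 0.5 and Spearman's rho. The edgeR fit was first tested on simulated data for the control stages and for Kdm5b against control in zygotes and in 2C samples. The other comparisons and the alternatives were not simulated. Sequences came from RefSeq promoters of GRCm38.p6. Python 3.11.15, numpy 2.4.6, pandas 2.3.3, scipy 1.17.1 and matplotlib 3.10.9 were used.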

Additional observations from a re-analysis of the deposited data

Results flagged for a closer look

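In each of the 40 combinations of member and group, the lowest and the highest sample were compared with the rest by Dixon's criterion on log2 CPM, and 3 stood apart. Chance alone sets apart about 1 in 20 such groups. Klf5 in control zygote 10 was at 0 TPM, while the other 9 control zygotes lay between 1.02 and 6.39. Pou5f1 in control zygote 2 was at 519 TPM, below the other control zygotes at 569 to 656. Tfap2c in control zygote 3 was at 29.4 TPM, below the others at 49.0 to 86.7. These were 3 different samples, and none of them was among the samples whose removal changed a call on the same gene.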

How the results depend on the processing

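Without the threshold on the fold change, the number of members called went from 1 to 7 in both stage comparisons. In the interaction, DESeq2's Wald test called 1 member and the fit with the replicate number as a block called 1, in both cases Klf17, where the reported fit called 0 (adjusted p = 0.0457 with the block). Of all 13778 genes, 1413 and 1859 had an unadjusted p under 0.05 in these 2 fits, against 1249 in the reported fit. The samples share only a number, and the block changed 3 other calls at an adjusted p of 0.05, those of Klf4 (0.0959) and Tfap2c (0.0604) between the control stages and of Dppa2 (0.0540) between the Kdm5b stages. In the slope on the Kdm5b share in Kdm5b 2C samples, DESeq2 called 1 member, Sall4, where edgeR called 0. Of all 11984 genes, 927 had an unadjusted p under 0.05 by DESeq2 and 757 by edgeR. Leaving out 1 sample at a time gave 1 to 2 members past both thresholds between the Kdm5b stages (2 without Kdm5b 2C sample 1, Dppa4 being the second) and 0 to 1 in the interaction (1 without Kdm5b 2C sample 2, Klf17), and moved no count in the other comparisons. Over all refits, single genes stayed on the same side of the threshold in 1551 cases, gained it in 17, lost it in 21 and reversed in 0 past it. The 1551 include changes of sign where neither fit passed. Klf5 between Kdm5b and control 2C samples, for example, went from -0.09 to 0.26 with the index set. Of the 40 places in the order of levels (10 genes in 4 groups), 36 to 40 were kept. The cause was not tested. Precision was limited by the 6 Kdm5b 2C samples and by counts as low as 0 for Klf5 in zygotes and 8 for Dppa4 in 2C samples.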
